A study of Mus musculus with 4 samples.

Results

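The loci of 40 transcription factor genes of the T lineage were examined for binding of topoisomerase IIβ (TOP2B) in mouse thymocytes. A locus was taken as the gene in the GENCODE M1 annotation of the mouse build mm9 with 100 kb on each side, and a peak belonged to it if its centre lay inside. The 40 genes are part of 22247 protein-coding genes on chromosomes 1 to 19 and X, and their loci held 44 of the 3564 peaks found with a Novus Biologicals antibody and 241 of the 17754 peaks found with a Santa Cruz antibody. The genes were listed by name for their role, with earlier results of these data known. The lists hold no expression values, so that the level of each factor in these cells was not analysed here.

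Thymocytes, the developing T cells of the thymus, came from wild-type C57BL/6 mice aged 4 to 6 weeks, for which the labels name no treatment. The cells were fixed with formaldehyde, and ChIPseq libraries were made by ChIPmentation, in which a transposase adds the sequencing adaptors to the immunoprecipitated chromatin. Of 4 libraries, 2 were made with antibodies against TOP2B from both suppliers, and those against TOP2A and with IgG were not analysed here. Each antibody had 1 library, so that no value has a replicate spread. Every interval given is an exact 95% interval (Clopper-Pearson for shares, Poisson for counts) that covers counting error within a list only. The intervals treat peaks or genes as independent, and are too narrow where peaks cluster. The lists give positions without read numbers or scores, and the precision of a single peak is therefore unknown. Peaks were 187 bp wide in the Santa Cruz list and 195 bp wide in the Novus list.

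TOP2B is a type II topoisomerase, which opens a DNA duplex by a transient break, passes another duplex through it and reseals the break. It is the main type II enzyme of cells that do not divide, and it is known to lie at active promoters and enhancers and next to CTCF and cohesin at the anchors of chromatin loops. The genes examined encode factors that direct the path from early thymic progenitors to mature CD4 and CD8 T cells. Many of these genes are controlled by distant enhancers, which is why peaks far from the start were counted as well.

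The sequences below show the peaks on which the comparison of both antibodies turned. Novus peaks that overlapped a Santa Cruz peak by 1 bp or more were called common. The first 4 are the common peaks inside or nearest to a member that held the CTCF core motif, which is the consensus bound by the loop anchor protein CTCF, allowing 1 mismatch and both strands. The others were chosen after their values were seen: the peak at Lef1, where both antibodies gave the closest centres, and the peaks at the starts of Gata3 and Bach2, the genes with peaks of both lists within 1 kb of their own start. The sequence of the Santa Cruz peak at the start of Gata3 is not shown. All are given on the plus strand of mm9, and capitals mark a CTCF core match or, at Id2, also the E box CAGCTG.
Tox, common Novus peak in the gene, chr4:6615803-6615997: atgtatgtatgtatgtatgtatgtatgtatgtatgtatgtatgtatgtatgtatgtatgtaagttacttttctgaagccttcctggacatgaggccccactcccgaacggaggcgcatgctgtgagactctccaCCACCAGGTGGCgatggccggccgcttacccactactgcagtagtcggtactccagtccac
Id2, common Novus peak downstream of the gene, chr12:25777187-25777381: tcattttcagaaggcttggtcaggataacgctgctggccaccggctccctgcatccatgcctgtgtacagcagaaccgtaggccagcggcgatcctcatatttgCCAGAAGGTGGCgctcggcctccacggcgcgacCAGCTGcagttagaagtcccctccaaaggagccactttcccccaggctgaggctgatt
Rora, common Novus peak in an intron, chr9:69216026-69216220: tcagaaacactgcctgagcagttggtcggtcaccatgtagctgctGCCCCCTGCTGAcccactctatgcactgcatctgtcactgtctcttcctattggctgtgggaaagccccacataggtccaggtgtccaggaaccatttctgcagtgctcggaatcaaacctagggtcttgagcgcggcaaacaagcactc
Ikzf1, common Novus peak downstream of the gene, chr11:11688777-11688971: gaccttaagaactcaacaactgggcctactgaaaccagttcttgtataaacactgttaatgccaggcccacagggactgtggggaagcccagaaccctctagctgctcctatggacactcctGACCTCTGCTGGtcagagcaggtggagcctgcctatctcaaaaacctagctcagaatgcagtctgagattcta
Lef1, common Novus peak upstream of the gene, chr3:130722449-130722643: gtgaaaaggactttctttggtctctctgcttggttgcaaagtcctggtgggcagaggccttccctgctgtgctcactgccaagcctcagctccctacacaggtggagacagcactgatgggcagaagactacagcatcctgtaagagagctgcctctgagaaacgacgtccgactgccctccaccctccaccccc
Gata3, Novus peak at the start, chr2:9810955-9811149: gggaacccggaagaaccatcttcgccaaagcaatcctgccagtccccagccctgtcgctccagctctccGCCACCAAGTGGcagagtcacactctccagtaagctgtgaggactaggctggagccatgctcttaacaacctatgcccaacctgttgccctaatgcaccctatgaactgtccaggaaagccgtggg
Bach2, Santa Cruz peak at the start, chr4:32326219-32326405: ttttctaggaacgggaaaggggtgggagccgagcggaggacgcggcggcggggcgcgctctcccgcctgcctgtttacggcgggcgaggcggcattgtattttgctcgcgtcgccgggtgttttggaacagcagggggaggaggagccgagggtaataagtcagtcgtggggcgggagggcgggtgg
Bach2, Novus peak at the start, chr4:32326690-32326884: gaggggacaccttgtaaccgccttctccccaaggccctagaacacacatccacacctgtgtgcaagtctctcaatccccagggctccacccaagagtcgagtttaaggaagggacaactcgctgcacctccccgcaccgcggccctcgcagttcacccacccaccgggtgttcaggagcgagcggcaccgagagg

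TOP2B peaks were found more densely at these loci than over the loci of all protein-coding genes. Since some loci touch, the 40 genes formed 37 merged loci of 11.37 Mb in all, which is 0.431% of the assembled length. They held 1.23% of the Novus list and 1.36% of the Santa Cruz list. The density was 3.87 Novus peaks per Mb (2.81 to 5.19) against 1.83 per Mb over the merged loci of all protein-coding genes, a ratio of 2.12 (1.54 to 2.84). For Santa Cruz it was 21.2 peaks per Mb (18.6 to 24.0) against 8.61, a ratio of 2.46 (2.16 to 2.79). The Santa Cruz list held 5.48 times as many peaks as the Novus list at these loci and 4.98 times as many in all.

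Every member had a Santa Cruz peak in its locus (40 of 40), which most genes had, since 79.6% of all protein-coding genes have a Santa Cruz peak in the gene or within 100 kb. A Novus peak lay in the locus of 30 of 40 members (75%, 58.8% to 87.3%), beside 40.1% of all protein-coding genes. A common peak lay in the locus of 16 of 40 (40%, 24.9% to 56.7%), beside 14.8% of all protein-coding genes. These 16 loci rest on 14 common peaks, since Stat3, Stat5a and Stat5b share 1, and the interval treats the loci as independent. The members are also longer genes (median 50.9 against 15.5 kb), so that their loci are larger. The number of Santa Cruz peaks per locus ran from 1 at Bcl6 to 16 at Rora with a median of 6, and that of Novus peaks from 0 at 10 members to 5 at Ikzf1 with a median of 1. Per Mb, 14 members were among the densest 10% of all genes for Santa Cruz peaks, 26 were among the densest 25%, and 38 were among the densest 50%. For Novus peaks these numbers were 5, 14 and 30. The median Novus density over all genes was 0 per Mb, so these 30 are simply the members with any Novus peak in the locus. With so few Novus peaks, the ranks also depend on the size of the locus. On 1 Novus peak each, 15.9% of all genes were at least as dense as Id3 (202 kb) and 40.1% as Rora (934 kb).

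**Figure D1:**
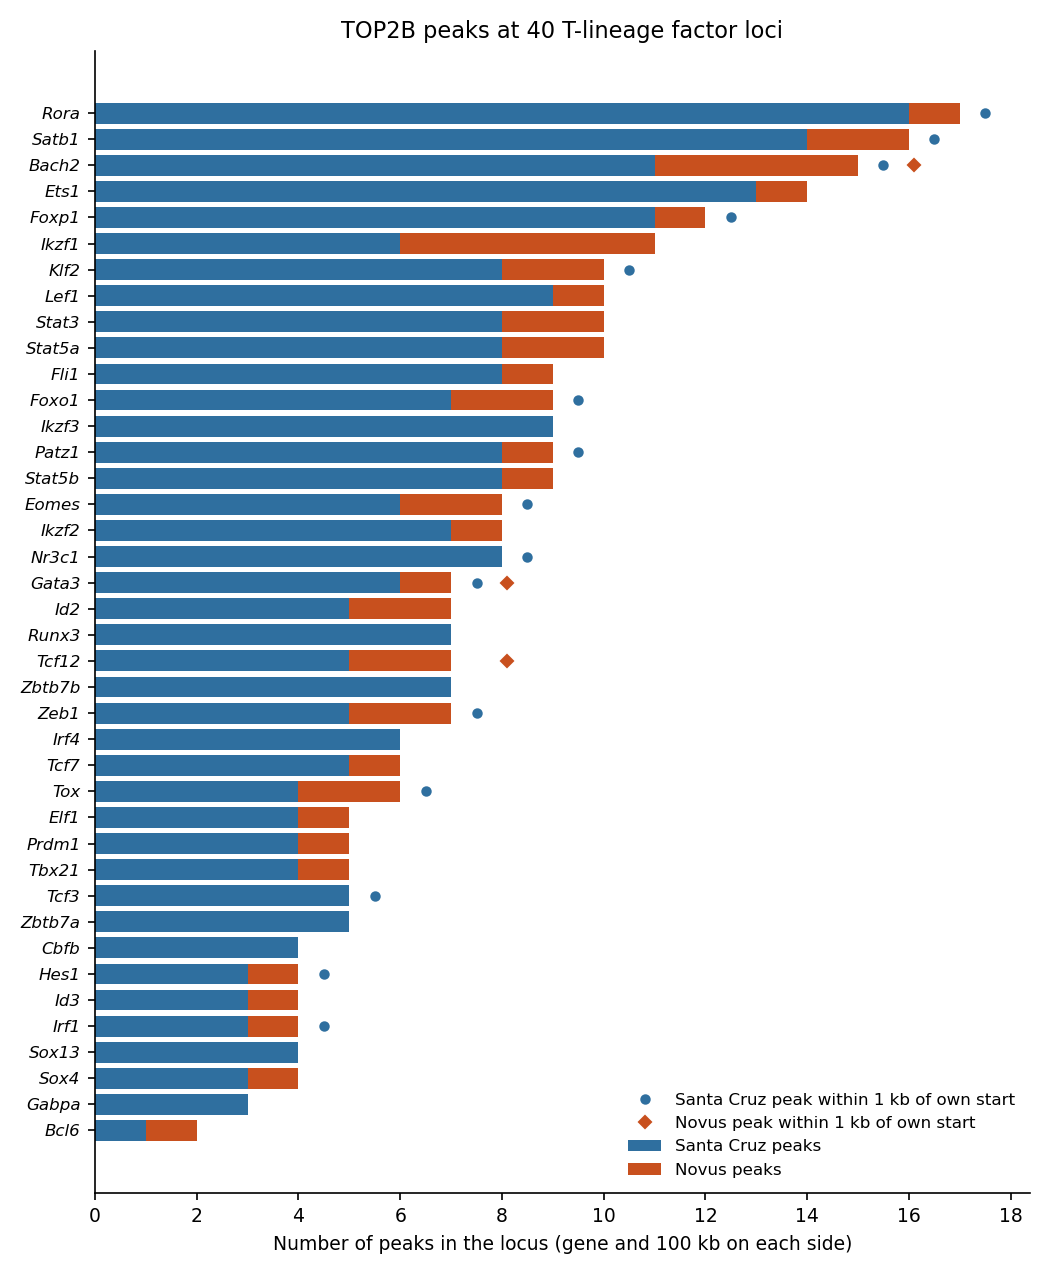
Number of Santa Cruz (blue) and Novus (orange) peaks in the locus of each of the 40 members, with a circle or a diamond where a Santa Cruz or a Novus peak lay within 1 kb of the member's own start. Peaks shared by neighbouring loci are drawn at each of them. Rora, Satb1 and Bach2 held the most peaks of both lists together (17, 16 and 15), and Bcl6 the fewest (1 of each list).

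The start itself was examined next. A Santa Cruz peak was centred within 1 kb of an own start, meaning the start of any of its annotated protein-coding transcripts, in 15 of 40 members (37.5%, 22.7% to 54.2%), beside 12.1% of all protein-coding genes. A Novus peak was centred there in 3 of 40 (7.5%, 1.57% to 20.4%), beside 5.12% of all protein-coding genes. This interval rests on 3 genes and holds the share of all genes. No member had a common peak at its own start, where 1.27% of all protein-coding genes have one, and 0 of 40 allows a share of up to 8.81%. At the starts of Gata3 and Bach2, which had a peak of both lists, the centres lay 407 and 475 bp apart and the peaks did not share a base. Of the others, 13 members had a Santa Cruz peak only, Tcf12 had a Novus peak only, and 24 had neither.

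The Santa Cruz peaks at own starts lay close to them, between 21 and 696 bp away with a median of 193 bp, and 7 of the 17 were upstream. The 3 Novus peaks were all downstream, 609 to 862 bp from the start and in an intron. Just outside the distance of 1 kb stood the Santa Cruz peaks of Fli1 (1059 bp), Runx3 (1072 bp), Id2 (1077 bp) and Irf4 (1379 bp). Several members have more than 1 annotated start. The Santa Cruz peaks of Tcf3, Satb1, Patz1, Foxp1, Rora and Eomes lay at an inner start, more than 1 kb from the outermost one. The Novus peak of Bach2 lay 1008 bp from the outermost start, and a further Santa Cruz peak of Zeb1 1935 bp. Counting the outermost start only, 9 members kept a Santa Cruz peak and 2 a Novus peak. The share of all protein-coding genes under this rule was not computed. The part of additional starts in the difference between members and all genes was therefore not tested.

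Most peaks lay away from the start of the factor gene, in loci that reach 100 kb past the gene on each side. The size of the loci sets the range of these distances. Distances of shifted peaks or of peaks at all genes were not computed, so the values are not set against a background. Distances are to the nearest such start unless the outermost annotated start is named. The median distance was 51.0 kb for Novus and 49.8 kb for Santa Cruz, and 22 of 44 Novus and 120 of 241 Santa Cruz peaks were more than 50 kb away. Of the Novus peaks, 3 were at a member's own start, 5 at the start of another coding gene, 12 elsewhere inside a member and 24 elsewhere outside the members. The corresponding Santa Cruz counts were 17, 21, 70 and 133. Inside the gene, 31 of 40 members held a Santa Cruz peak and 10 of 40 a Novus peak, beside 25.5% and 7.68% of all protein-coding genes. The members are longer genes, with a median of 50.9 kb against 15.5 kb, and per Mb of gene they held 21.7 Santa Cruz and 3.88 Novus peaks against 9.43 and 1.93.

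By feature, 8 Novus peaks (18.2%, 8.19% to 32.7%) were within 1 kb of any coding start, below the 29.7% of the whole Novus list but with an interval that holds that value. For Santa Cruz the share was 15.8% (11.4% to 21.0%) at the loci and 15.2% in the whole list. Introns held 107 Santa Cruz peaks (44.4%, against 39.5% of the whole list) and 15 Novus peaks (34.1%, against 30.7%). Other exons held 6 Santa Cruz and 4 Novus peaks, and 90 and 17 were intergenic.

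**Figure D2:**
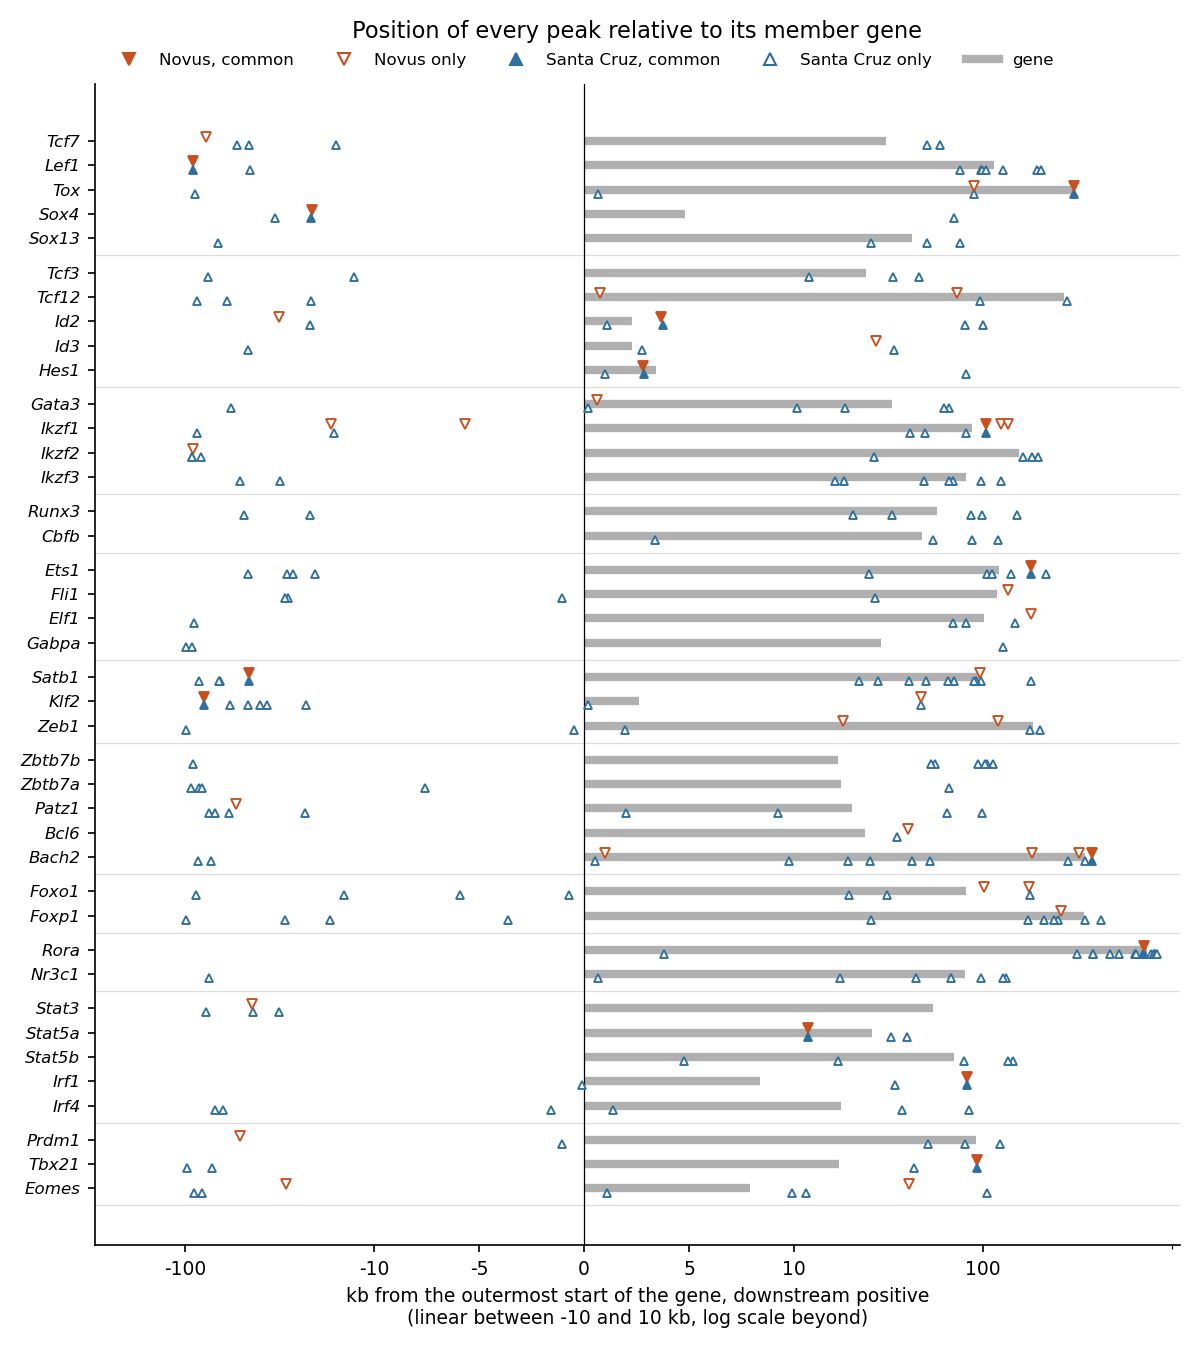
Distance in kb of each peak centre from the outermost annotated start of the member gene it is nearest to, with downstream positive. The axis is linear within 10 kb of the start and logarithmic beyond, grey bars mark the genes, orange and blue triangles the Novus and Santa Cruz peaks, and filled triangles the common peaks. The 14 pairs of filled triangles lie away from the starts, from 2788 bp at Hes1 to 714530 bp at Rora by this measure.

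The HMG box factors had 25 Santa Cruz and 5 Novus peaks (16.7 and 3.34 per Mb), and 3 of the latter were common. Tcf7 encodes TCF-1, which acts early in T-cell specification. Its locus held 5 Santa Cruz peaks and none of them in the gene, the nearest 16.0 kb upstream, and its Novus peak was at the start of Vdac1, 77.9 kb away. Lef1, the partner of TCF-1 in β-selected thymocytes, held 9 Santa Cruz peaks. Its common peak lay 90.8 kb upstream, with both centres 2 bp apart, and the distal peak nearest to a start was a Santa Cruz peak at chr3:130768166-130768352, 45.1 kb upstream.

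Tox, an HMG box factor needed for CD4 T-cell development, had a Santa Cruz peak 114 bp upstream of its start (chr4:6917967-6918153). Its common peak lay 302 kb downstream in an intron near the far end of the gene and held an exact CTCF core match, 43 bp from the Novus centre. A further Novus peak and a Santa Cruz peak of Tox lay 89.1 and 89.4 kb downstream, 285 bp apart without a shared base. Sox4, another HMG box gene of early thymocytes, had its common peak 21.4 kb upstream (chr13:29066880-29067074), and none of its peaks were in the gene. Sox13, a factor of γδ T cells, had 4 Santa Cruz peaks and no Novus peak.

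The helix-loop-helix factors and their inhibitors had 21 Santa Cruz and 6 Novus peaks (16.2 and 4.62 per Mb). Tcf3 and Tcf12 encode the E proteins E2A and HEB, which bind E boxes and drive T-cell receptor gene rearrangement. Tcf3 had a Santa Cruz peak 151 bp from a start (chr10:79884361-79884547), 11938 bp from the outermost start, and no Novus peak. Tcf12 had a Novus peak 778 bp downstream of its start (chr9:71958751-71958945) and another 73.2 kb downstream, while its nearest Santa Cruz peak was 21.5 kb upstream. The E proteins thus carried start peaks of different lists.

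Id2 and Id3 encode inhibitors that dimerise with E proteins and keep them off DNA. At Id2, the common peak lay 3.67 kb downstream of the start, just past the end of a gene of 2.29 kb, with the CTCF core match 13 bp from the Novus centre, and an intronic Santa Cruz peak was centred 1.08 kb past the start. At Id3 the nearest peaks were a Santa Cruz peak 2.77 kb and a Novus peak 27.2 kb downstream. Hes1, a repressor induced by Notch, had a Santa Cruz peak 29 bp from its start (chr16:30065362-30065548). Its common peak lay 1.83 kb downstream in coding sequence (chr16:30067161-30067355), with centres 51 bp apart, and is the common peak closest to a member's start.

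The zinc fingers of the GATA and Ikaros families had 28 Santa Cruz and 7 Novus peaks (24.2 and 6.05 per Mb). At Gata3, the factor that commits cells to the T and CD4 lineages, the Santa Cruz peak lay 202 bp downstream of the start (chr2:9811366-9811552) in the untranslated part of an exon. The Novus peak lay 609 bp downstream in an intron, with a CTCF core match in the sequence given above. Among all peaks at own starts, this Novus peak and a Santa Cruz peak of Eomes were the only ones with a match to that motif. Further Santa Cruz peaks of Gata3 lay in introns, 1.0 kb upstream of an inner start and 7.09 kb downstream.

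Ikzf1, which encodes Ikaros, a factor of all lymphocytes, held 5 Novus peaks, more than any other member, and 0.634% of all protein-coding genes were at least as dense (17.4 per Mb). None of the 5 lay in the gene. The nearest was 5.69 kb upstream (chr11:11579216-11579410) and the next 16.9 kb upstream, 601 bp from a Santa Cruz peak. Downstream, the common peak was in an intron of Fignl1, 88.7 kb from the nearest Ikzf1 start, and the others were at the start of Fignl1 and in an intron of Ddc.

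The 6 Santa Cruz peaks of Ikzf1 included 3 in its introns, at 25.9, 34.4 and 66.1 kb. Ikzf3, which encodes Aiolos, had 9 Santa Cruz peaks and 5 of them in its gene, but no Novus peak. Ikzf2, which encodes Helios, had 7 Santa Cruz peaks and 1 Novus peak 91.0 kb upstream, 1001 bp from a Santa Cruz peak.

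The RUNX complex, with Runx3, needed for CD8 T cells, and Cbfb, the shared partner of all RUNX proteins, had 11 Santa Cruz peaks and no Novus peak. The nearest Santa Cruz peaks were in introns, 1.07 kb downstream of a start of Runx3 and 3.36 kb downstream of that of Cbfb. Runx3 held 7 peaks, of which 2 were in the gene.

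The ETS factors had 21 Santa Cruz and 3 Novus peaks (19.7 and 2.81 per Mb), and none had a peak at its own start. Ets1 and Fli1 are neighbours transcribed away from each other, and their loci overlap. Ets1, required for thymocyte maturation, held 13 Santa Cruz peaks (40.4 per Mb), a density reached by 1.57% of all protein-coding genes. The nearest was 20.5 kb upstream (chr9:32423229-32423415), others lay 26.8, 29.0 and 46.2 kb upstream, and 3 lay in introns. The common peak of Ets1 was 119559 bp downstream of the nearest start (chr9:32623089-32623283), with centres 83 bp apart.

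Fli1, an ETS factor of many blood lineages, had 8 Santa Cruz peaks, the nearest 1059 bp upstream, and its Novus peak lay 136 kb downstream, outside the gene. Elf1 had 4 Santa Cruz peaks, including 2 in introns, and a Novus peak at the start of Lect1. Gabpa, which encodes the DNA-binding part of GABP, had 3 Santa Cruz peaks, all at least 91.8 kb from its starts, and no Novus peak. The ETS loci thus ranged from among the densest of all members to among the sparsest.

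The BTB factors had 32 Santa Cruz and 6 Novus peaks (22.4 and 4.21 per Mb). Zbtb7b encodes ThPOK, which sets the CD4 lineage, and its 7 Santa Cruz peaks were all outside the gene, at least 45.6 kb from a start and 2 of them within 1 kb of the starts of Efna1 and Efna4. Zbtb7a, which encodes LRF, had 5 Santa Cruz peaks, also outside the gene, the nearest 7.58 kb upstream. Neither had a Novus peak. Patz1, which encodes MAZR, a regulator of the CD8 genes, had 2 Santa Cruz peaks at inner starts, 403 bp downstream of one (chr11:3190770-3190956) and 177 bp upstream of another (chr11:3198017-3198203). Bcl6, which directs follicular helper T cells, had the fewest peaks, a Santa Cruz peak 34.9 kb and a Novus peak 39950 bp downstream of the start, both outside the gene.

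Bach2, a repressor that holds T cells in a less differentiated state, had 11 Santa Cruz and 4 Novus peaks, and 7 and 3 of these were in the gene. At its start, the Santa Cruz peak lay 387 bp and the Novus peak 862 bp downstream, both in an intron. Its distal peak nearest to a start was a Novus peak with a CTCF core match (chr4:32506880-32507074), 2.57 kb downstream of an inner start. The common peak of this locus was at the start of Casp8ap2 (chr4:32702315-32702509), 114 kb from the nearest start of Bach2. Bach2 was therefore the member with most Novus peaks after Ikzf1, with 3 of 4 in the gene where Ikzf1 had 0 of 5.

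The forkhead genes had 18 Santa Cruz and 3 Novus peaks (21.9 and 3.65 per Mb), and both had a Santa Cruz peak at a start. Foxo1, which controls homing and survival genes of naive T cells, had it 696 bp upstream of its start (chr3:52071470-52071656). Its Novus peaks were downstream, at 101 and 176 kb. Foxp1, a factor of T-cell quiescence, had it 105 bp from an inner start (chr6:98977988-98978174), 238445 bp from the outermost. The distal peak of Foxp1 nearest to a start was 3.63 kb upstream (chr6:99220049-99220235), inside the neighbouring gene Eif4e3, and its Novus peak was in an untranslated exon 21.0 kb downstream of an inner start.

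The nuclear receptors had 24 Santa Cruz peaks and 1 Novus peak (19.7 and 0.823 per Mb). Rora, which encodes RORα, is the longest member (734 kb) and held the most Santa Cruz peaks (16, of which 10 were in the gene), but since the locus is long its density of 17.1 per Mb was reached by 27.2% of all protein-coding genes. A Santa Cruz peak lay 21 bp from an inner start (chr9:69137375-69137561), 635875 bp from the outermost, and the nearest distal peak was 3.82 kb from the outermost start (chr9:68505321-68505507). The only Novus peak of Rora, in an intron 21.1 kb downstream of a further inner start, was common and held a CTCF core match. Beyond the gene, 5 Santa Cruz peaks clustered at the neighbouring Anxa2, between 106 and 139 kb downstream of the nearest Rora start. Nr3c1 encodes the glucocorticoid receptor, and had a Santa Cruz peak 55 bp from a start (chr18:39650180-39650366), 8 Santa Cruz peaks in all and no Novus peak.

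Satb1, Klf2 and Zeb1 had 27 Santa Cruz and 6 Novus peaks, the highest densities of the groups for both lists (30.6 and 6.79 per Mb), and each had a Santa Cruz peak at a start. Satb1, a genome organiser abundant in thymocytes, held 14 Santa Cruz peaks (47.1 per Mb), a density reached by 0.733% of all protein-coding genes, and 8 of them were in the gene. The peak at a start lay 440 bp upstream of an inner start (chr17:51882390-51882576), 90132 bp from the outermost, and the next, in an intron, 1003 bp from a start (chr17:51950487-51950673). The common peak was 46.1 kb upstream (chr17:52018630-52018824), and the other Novus peak was in the last, untranslated stretch of the gene, 996 bp from a Santa Cruz peak.

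Klf2, a factor of thymic exit, had 8 Santa Cruz peaks in a locus of 203 kb (39.5 per Mb), reached by 1.8% of all protein-coding genes. One was at the start, 201 bp downstream (chr8:74843040-74843226). Between 23.0 and 57.9 kb upstream lay 5 others, the nearest at chr8:74819829-74820015, and the common peak was at the start of Ap1m1 (chr8:74763644-74763838). Its other Novus peak lay 225 bp from a Santa Cruz peak in an intron of Eps15l1, 47.1 kb downstream. Zeb1, a repressor of Il2, had 2 Santa Cruz peaks at its starts, 470 bp upstream of one (chr18:5591295-5591481) and 193 bp downstream of another (chr18:5593700-5593886), and 2 Novus peaks in introns, 15.9 and 118 kb downstream.

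The STAT and IRF genes had 20 Santa Cruz and 3 Novus peaks (25.5 and 3.82 per Mb). Stat3, Stat5a and Stat5b, which carry cytokine signals to the nucleus, are neighbours and share many of their peaks. They had no peak at a start. Their common peak was in an intron of Stat5a, 10.7 kb downstream (chr11:100732365-100732559), and was also the distal peak nearest to the start of Stat5a. The distal peak nearest to Stat3 lay 31.9 kb upstream, at the start of Ptrf (chr11:100832663-100832849), and the Novus peak 44.1 kb upstream was 200 bp from a Santa Cruz peak without a shared base.

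Irf1, an interferon-responsive factor of CD8 T-cell development, had a Santa Cruz peak 119 bp upstream of its start (chr11:53583304-53583490). Its common peak was 81.5 kb downstream, in an intron of Gm12216 (chr11:53665410-53665604). Irf4, induced by antigen receptor signals, had 6 Santa Cruz peaks, of which those nearest to the start were 1.58 kb upstream and 1.38 kb downstream, and no Novus peak.

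The effector-lineage factors, which act mainly in mature T cells, had 14 Santa Cruz and 4 Novus peaks (19.5 and 5.58 per Mb). Eomes, a factor of memory CD8 T cells, had a Santa Cruz peak 447 bp from an inner start, in coding sequence (chr9:118388333-118388519), the only Santa Cruz peak at a member's own start with a CTCF core match. Its Novus peaks were 29.4 kb upstream and 39.8 kb downstream. Tbx21, which encodes T-bet, had no peak in its gene, and its common peak was in coding sequence of Sp6, 93.2 kb away (chr11:96883355-96883549). Prdm1, which encodes Blimp-1, had 4 Santa Cruz peaks, of which 2 were in the gene. Its coding starts are annotated inside the gene, with a Santa Cruz peak 10.2 kb and the Novus peak 121 kb from the nearest of them. From the outermost annotated start, another Santa Cruz peak lay 1028 bp and the Novus peak 51493 bp upstream.

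The same counts for other lists of transcription factors set these values beside genes of similar function. For 19 other T-lineage factors, among them Bcl11b, Runx1, Notch1 and Myb, the loci held 18.8 Santa Cruz peaks per Mb (15.4 to 22.9) and 3.69 Novus peaks per Mb (2.25 to 5.7). Factors of other blood lineages and of the thymic epithelium, such as Spi1, Pax5 and Foxn1, had 12.3 (9.5 to 15.6) and 2.05 (1.02 to 3.66), and factors of other tissues, such as Sox2, Pax6 and Myod1, had 7.49 (5.09 to 10.6) and 1.21 (0.392 to 2.82). The interval of the 40 members for Santa Cruz, 18.6 to 24.0, overlapped with that of the other T-lineage factors and not with those of the other lists. For Novus the interval of the members, 2.81 to 5.19, overlapped with those of all 3 lists. These intervals treat peaks as independent, so the separation for Santa Cruz was not tested against clustering of peaks.

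A Santa Cruz peak lay at the own start of 8 of 19 other T-lineage factors (42.1%, 20.3% to 66.5%), which were Runx1, Rbpj, Tox2, Nfatc1, Nfatc2, Nfatc3, Klf13 and Hivep3. Among the factors of other blood lineages and the thymic epithelium it was 3 of 20 (15%, 3.21% to 37.9%), and among those of other tissues 0 of 20, which allows up to 16.8%. Only for the last list did the interval stay below that of the 40 members. No gene of these lists had a Novus peak at its start. A Novus peak lay in the locus of 12 of 19, 7 of 20 and 4 of 20 genes of the lists in this order, and a Santa Cruz peak in that of 18, 18 and 13.

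**Figure D3:**
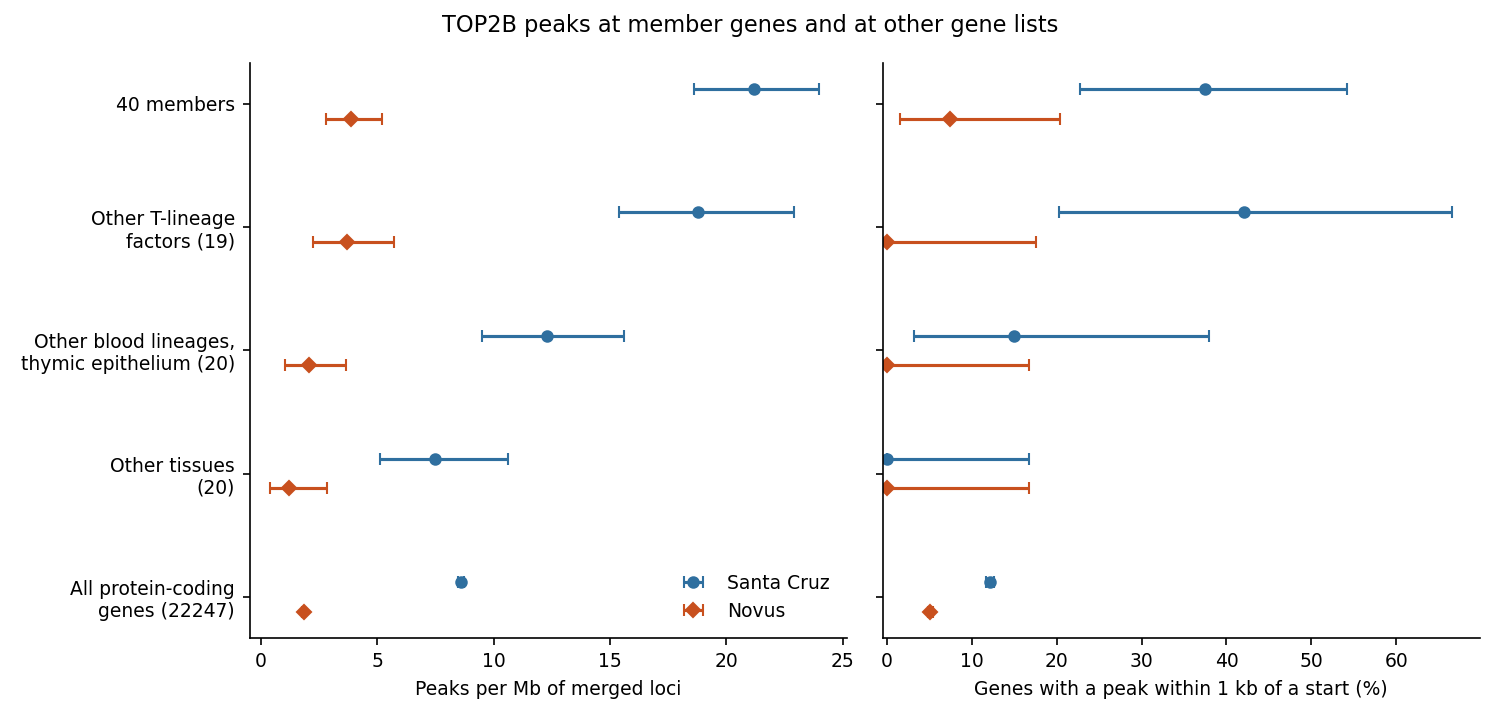
Peaks per Mb of merged loci (left) and percent of genes with a peak within 1 kb of a start (right) for the 40 members, the 3 other lists and all protein-coding genes. Circles stand for Santa Cruz, diamonds for Novus, and bars for exact 95% intervals of counting error. The members (21.2 Santa Cruz peaks per Mb) stand close to the other T-lineage factors (18.8) and above factors of other tissues (7.49).

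CpG content and gene density were set beside the counts for the members and for all protein-coding genes, and not for the other lists. A start with a GC content of at least 50% and a ratio of observed to expected CpG of at least 0.6 over 1 kb was found for 36 of 40 members and 10747 of 22247 protein-coding genes. It need not be the start with the peak. At Gata3, which is among the 36, both start peaks lay at the outermost start, where the ratio was 0.481. Among genes with such a start, a Santa Cruz peak lay at the own start of 14 of 36 members (38.9%) and of 19.6% of all genes, and a Novus peak of 3 of 36 (8.33%) and 8.73%. All genes were split into 11123 in gene-poor and 11124 in gene-rich surroundings, with 28 and 12 members. In gene-poor surroundings the members had 20.3 Santa Cruz peaks per Mb against 8.01 for all genes, and in gene-rich ones 25.4 against 12.7. For Novus the densities were 4.25 against 1.72 and 3.03 against 2.76, so that in gene-rich surroundings the members were near all genes. The Novus values of the members rest on 38 peaks in gene-poor and 8 peaks in gene-rich surroundings, where a peak in loci of both classes counts in each. No interval was computed for them, and 8 peaks are too few to order the member values. The part of CpG content and gene density in the counts was not tested further.

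The peaks of each list were also moved along the chromosomes by fixed, evenly spaced offsets, and the loci were kept in place. In 99 circular shifts, 16.9 Novus peaks fell in the member loci on average (5 to 32) against 44 in place, and 86.7 Santa Cruz peaks (51 to 125) against 241. Of the common peaks, 4.63 fell there (1 to 10) against 14. Members with a Santa Cruz peak at their own start numbered 1.12 on average and 6 at most against 15, and those with a Novus peak 0.172 on average and 1 at most against 3. In place, these were 37.5% and 7.5% of members, beside 12.1% and 5.12% of all protein-coding genes. Shifting moves peaks off the starts of all genes alike, so the shifted start counts do not set the members apart from other genes. Shifts of 300 kb to 2 Mb to either side keep the peaks in the same part of the chromosome, but can carry them past their locus to other genes. They placed more peaks in the loci than the circular shifts, 25.2 Novus (14 to 40), 120.0 Santa Cruz (63 to 197) and 7.3 common peaks (4 to 10) on average over 10 shifts. The shortest, of 300 kb, is less than the length of several loci, such as those of Rora (934 kb) and Bach2 (547 kb), so that peaks of a locus can stay inside it. The shifts of that length gave 40 and 36 Novus and 197 and 154 Santa Cruz peaks, and the highest Novus count of the longer shifts was 38. The counts in place of Novus, Santa Cruz and common peaks were thus 2.6, 2.78 and 3.03 times the mean of the circular shifts, and 1.75, 2.01 and 1.92 times that of the shifts nearby. Shifted counts were not computed for the loci of all genes, so these ratios do not set the members apart from other genes. Against the loci of all protein-coding genes, the density ratios were 2.12 for Novus and 2.46 for Santa Cruz.

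**Figure D4:**
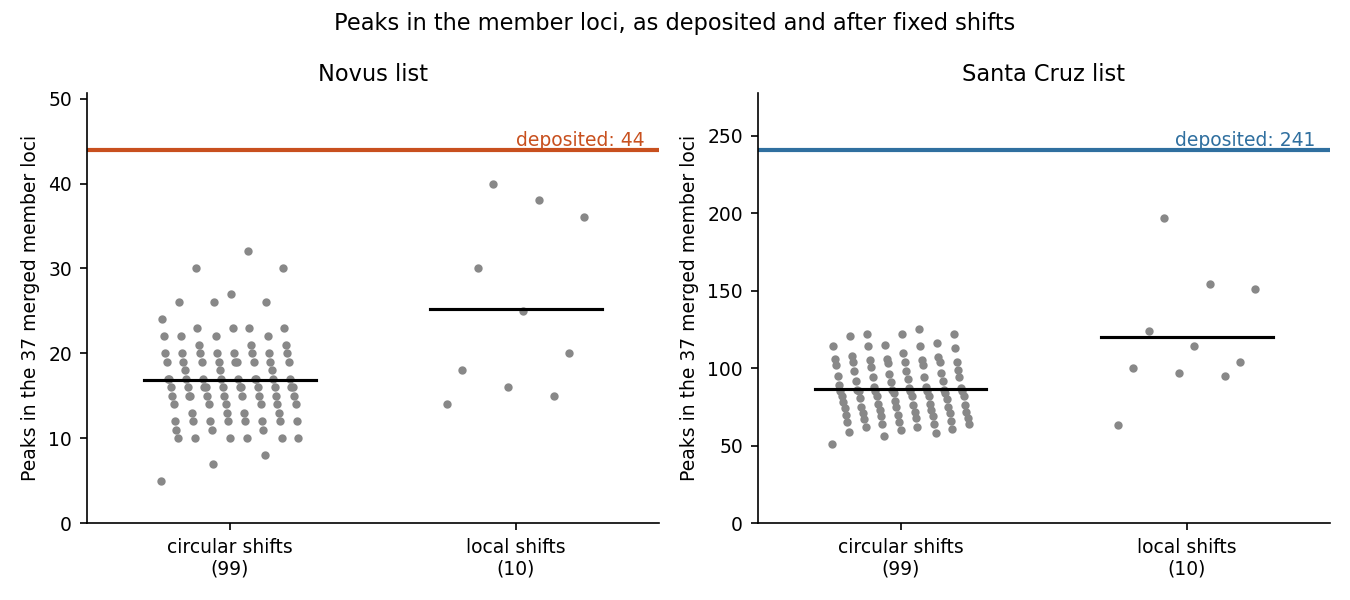
Number of Novus (left) and Santa Cruz (right) peaks in the 37 merged member loci, as deposited (coloured line) and after each of 99 circular and 10 local shifts (grey points, with the mean as a black line). Both lists held more peaks in place (44 and 241) than after any of these shifts, of which the highest gave 40 and 197, both after a local shift.

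Common peaks made up 14 of the 44 Novus peaks at the loci (31.8%, 18.6% to 47.6%), near the 27.9% of the whole Novus list, and 14 of the 241 Santa Cruz peaks (5.81%), near 5.65%. Their centres were 2 to 179 bp apart. A further 9 Novus peaks had a Santa Cruz centre within 200 to 1126 bp without a shared base, including those at the starts of Gata3 and Bach2. The distance was 5027 to 16293 bp for 7 others and 20269 to 109337 bp for the last 14. Of the common peaks, 2 were within 1 kb of a coding start, of Casp8ap2 and Ap1m1, and 4 were inside a member, namely Tox, Rora, Hes1 and Stat5a.

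**Figure D5:**
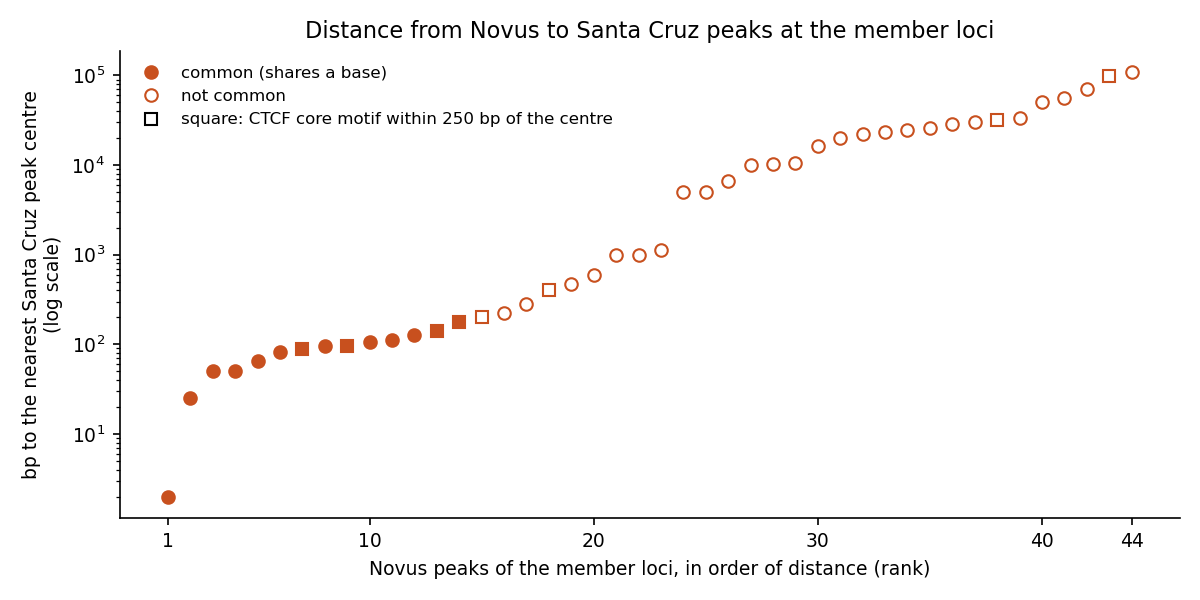
Distance in bp (log scale) from each of the 44 Novus peaks of the member loci to the nearest Santa Cruz centre, in order of distance. Filled points are common peaks, and squares hold a CTCF core match within 250 bp of the centre. The 14 common peaks run from 2 to 179 bp, and no distance falls between 1126 and 5027 bp.

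The CTCF core motif was searched within 250 bp of each centre. It was found at 8 of 44 Novus peaks (18.2%, 8.19% to 32.7%) against 25.6% of the whole list, and at 36 of 241 Santa Cruz peaks (14.9%, 10.7% to 20.1%) against 15.9%. When the peaks of the loci were moved by 10 kb to each side, the shares were 6.82% and 4.77%. Of the common peaks 4 of 14 held it (28.6%, 8.39% to 58.1%), against 39.4% of the whole list and 0 of 28 moved positions. The motif was found at 1 of 17 Santa Cruz peaks at own starts and at 33 of 203 away from any coding start (16.3%). The median GC content of these windows was 63.1% at own starts and 47.7% away from coding starts.

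Short motifs of factors that are themselves members were searched in the same windows on both strands. The RUNX motif, spelled TGTGGTT, was found at 9 Novus peaks (20.5%, 9.8% to 35.3%) against 12.8% of the whole list and 11.4% of moved positions. For Santa Cruz it was 40 peaks (16.6%, 12.1% to 21.9%) against 12.2% and 11.6%. The E box CAGCTG was found at 38.6% of Novus peaks (24.4% to 54.5%) against 30.2% and 21.6%, and at 28.2% of Santa Cruz peaks (22.6% to 34.4%) against 26.3% and 22.2%. The GATA motif, spelled AGATAA, was found at 9.09% of Novus peaks (2.53% to 21.7%), against 18.7% of the whole list and 23.9% of moved positions. This share rests on 4 peaks, and its interval holds the value of the whole list but not that of moved positions. For Santa Cruz the motif was found at 22% of peaks against 22.3% and 21%. The TCF/LEF motif, spelled CTTTGAT, was found at 6.82% of Novus peaks (1.43% to 18.7%) against 7.46% and 13.6%, and at 7.88% of Santa Cruz peaks against 7.58% and 8.71%. The ETS motif, spelled CCGGAAGT, was found at 2.27% of Novus peaks against 2.81% and 0%, and at 1.66% of Santa Cruz peaks against 1.49% and 0.83%. None of these strings holds another, and a match is a string and not a bound site.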

How the data were processed

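TOP2B ChIPseq peak lists of thymocytes were used, 1 library per antibody. Per the labels and methods, the authors used Bowtie 1.2.0 for alignment (mm9) and HOMER for calling peaks in each library against IgG. The deposited lists hold chromosome, start and end, and their score column is 0 throughout, so that peaks could not be ranked and a stricter list was not run.

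Peaks were placed by their centres on GENCODE M1 genes of the same build, with loci of 100 kb flanks, starts of protein-coding transcripts and promoters of 1 kb. Members and gene lists were chosen with earlier results of these data known. Of 20 other T-lineage factors 19 were matched (Gfi1 has no protein-coding record in this annotation), and Spi1 was matched by its older symbol. Members were named by all common peaks, all peaks at own starts and, for the 10 with most peaks, the nearest distal peak. Shifts were fixed offsets. Counting, overlap and motif search were tested on simulated data. Alternatives changed the flank, the start distance and set, the overlap, the shifts and the motif match. The comparisons by CpG-rich starts and by gene density were added after the data were seen. Software was samtools 1.23.1, matplotlib 3.10.9, pyfaidx 0.9.0.4, scipy 1.17.1, numpy 2.4.6 and Python 3.11.15.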

Additional observations from a re-analysis of the deposited data

How the results depend on the processing

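Of the values recomputed under other settings, 34 stayed within 1.5 times the reported count or within the counting interval of the reported share or ratio, and 14 did not. Flanks of 50 kb left 169 Santa Cruz peaks and 21 members with a Novus peak, and flanks of 200 kb held 347 Santa Cruz peaks. With flanks of 200 kb the loci held 73 Novus peaks, and without flanks 10 members held a Novus peak. Within 0.5 kb of a start no member had a Novus peak (0), and with all annotated transcripts 5 had one. With the outermost start only, 9 members had a Santa Cruz peak at their start. Beside the count without flanks stand 7.68% of all protein-coding genes, which have a Novus peak in the gene. For the other member counts of this section the share of all genes was not computed, so they cannot be set against it. The share of Santa Cruz peaks at a coding start was 22% within 2.5 kb. The common share of Novus peaks was 15.9% with an overlap of 50% of both peaks, 52.3% with both lists extended by 1 kb and 47.7% with centres within 1 kb. With local shifts the ratio of counts in place to shifted counts was 1.75 for Novus, 2.01 for Santa Cruz and 1.92 for common peaks (3.03 with circular shifts). An exact CTCF core match was found at 6.82% of Novus and 4.56% of Santa Cruz peaks, and a match within the peak itself at 7.47% of Santa Cruz peaks. The causes were not tested, apart from fewer positions being searched by the stricter settings. No paired analysis was possible because each antibody had 1 library. Without read numbers or replicates, differences between single loci cannot be set against an error.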
